A study of Mus musculus with 60 samples.

Results

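Cerebellar granule neuron genes are taken here as 9 genes, Neurod1, Pax6, Zic1, Zic2, Zic4, Etv1, Cbln1, Cbln3 and Fat2, chosen by symbol from 20423 genes in the deposited tables. All 9 were in the tables. RNA was measured in 60 libraries from cerebellum, cerebral cortex and striatum of mice 3 to 4 months old that had been through behavioural tests. The groups were wild-type mice and mice homozygous for a deficiency of PON2, females and males, in each region, which made 12 groups of 5 libraries. Both genotypes were on a C57BL/6J background and came as littermates from crosses of heterozygous mice. The labels name no allele and no promoter or cell type that would limit the deficiency, and RNA came from powdered tissue of the whole dissected region. The labels do not say whether equal replicate numbers in different regions come from the same mouse, so p-values measure the spread between these libraries.

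Granule neurons are small glutamatergic neurons of the cerebellar cortex. Their precursors leave the rhombic lip, divide in the external granular layer and settle in the internal granular layer, and their parallel fibres form synapses on Purkinje neurons. Zic1, Zic2 and Zic4 encode zinc finger factors, Neurod1 a basic helix-loop-helix factor and Pax6 a paired box factor of this lineage, and Etv1 encodes an ETS factor of maturing granule neurons. Cbln1 encodes a secreted protein that binds neurexins on parallel fibres and organises their synapses on Purkinje neurons, Cbln3 encodes a relative that is secreted together with Cbln1, and Fat2 encodes a giant cadherin of parallel fibres. PON2 is a lactonase found in mitochondria that limits oxidative stress.

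Library totals lay between 26.09 M and 28.13 M counts, M being the mega prefix. Pon2, in counts scaled by library size (CPM), was at 39.2 to 51.3 in wild-type and 0.457 to 1.26 in PON2-deficient cerebellum, and wild-type and PON2-deficient ranges were also apart in cortex (50.2 to 58.9 against 2.34 to 5.62 CPM) and striatum (44.7 to 56.8 against 2.54 to 6.91 CPM). Gabra6, which encodes a GABA receptor subunit of mature granule neurons, was at 491 to 599 CPM in the cerebellum libraries and at no more than 2.20 CPM in any cortex or striatum library. The cerebellum labels therefore went with the defining granule marker. In bulk tissue, fewer cells of a type and less RNA per cell cannot be told apart.

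The genes lie on 6 chromosomes (build GRCm38, GENCODE M21 annotation). Zic1 (ENSMUSG00000032368) spans chr9:91358058-91365810 on the minus strand and Zic4 (ENSMUSG00000036972) spans chr9:91362413-91389348 on the plus strand. Their spans overlap by 3398 bp but share only 60 bp of exon. Neurod1 (ENSMUSG00000034701) is at chr2:79452521-79456751 on the minus strand, where 201 bp of its exons are shared with Cerkl on the same strand, and Pax6 (ENSMUSG00000027168) is at chr2:105668900-105697364 on the plus strand. Zic2 (ENSMUSG00000061524) is at chr14:122475435-122479852 on the plus strand and Cbln3 (ENSMUSG00000040380) at chr14:55878913-55884392 on the minus strand. Cbln1 (ENSMUSG00000031654) is at chr8:87468405-87472609 on the minus strand, Fat2 (ENSMUSG00000055333) at chr11:55250609-55336564 on the minus strand and Etv1 (ENSMUSG00000004151) at chr12:38779380-38870484 on the plus strand. How reads in shared exons were assigned is not given in the sources used here, which limits the separation of Zic1 from Zic4 in the shared stretch.

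RefSeq promoter windows (GRCm38.p6, 250 bases before to 50 after a start site) were matched for 7 of the 9 genes. Zic2 and Cbln1 are named only. The windows of 4 genes are shown, Cbln3 and Fat2 because their levels differed most between regions, Etv1 because its level differed least, and Zic1 as the most abundant of the ZIC genes. Each is written 5′ to 3′ on the gene's strand, and capitals mark CG dinucleotides.
Cbln3, chr14:55884207-55884506, minus strand: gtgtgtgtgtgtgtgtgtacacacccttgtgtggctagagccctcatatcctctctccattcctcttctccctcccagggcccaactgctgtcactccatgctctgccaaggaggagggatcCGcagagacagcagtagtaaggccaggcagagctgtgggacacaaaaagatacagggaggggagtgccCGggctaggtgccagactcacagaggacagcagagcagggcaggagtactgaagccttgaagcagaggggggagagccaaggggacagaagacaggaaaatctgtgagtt
Fat2, chr11:55312208-55312507, minus strand: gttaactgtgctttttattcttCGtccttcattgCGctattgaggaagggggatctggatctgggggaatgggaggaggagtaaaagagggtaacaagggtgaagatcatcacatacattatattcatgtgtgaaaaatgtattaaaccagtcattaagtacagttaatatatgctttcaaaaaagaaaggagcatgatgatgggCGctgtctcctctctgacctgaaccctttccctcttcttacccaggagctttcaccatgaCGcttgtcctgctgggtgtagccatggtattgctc
Etv1, chr12:38779832-38780131, plus strand: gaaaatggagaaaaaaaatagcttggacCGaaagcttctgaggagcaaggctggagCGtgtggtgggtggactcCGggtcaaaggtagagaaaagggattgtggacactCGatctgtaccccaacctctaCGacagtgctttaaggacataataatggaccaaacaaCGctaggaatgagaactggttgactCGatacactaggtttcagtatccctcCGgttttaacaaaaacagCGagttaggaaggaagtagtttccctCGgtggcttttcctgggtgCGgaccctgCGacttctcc
Zic1, chr9:91365719-91366018, minus strand: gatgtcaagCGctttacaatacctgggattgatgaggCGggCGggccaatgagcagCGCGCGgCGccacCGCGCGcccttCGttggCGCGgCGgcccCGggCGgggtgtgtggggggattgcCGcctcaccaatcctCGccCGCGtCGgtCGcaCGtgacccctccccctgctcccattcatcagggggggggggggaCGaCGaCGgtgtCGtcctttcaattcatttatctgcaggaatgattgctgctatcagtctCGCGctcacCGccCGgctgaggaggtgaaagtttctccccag

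The Cbln3 window held 2 CG dinucleotides and the Fat2 window 4, against a median of 7 and quartiles of 3 and 20 over all 32851 windows of this length. Zic1 held 31 and Neurod1 26, more than 89.4% and 83.1% of all windows. Etv1 held 12 in the window shown and 3 in its other window, Zic4 held 8, and Pax6 held 18 and 16 in its pair of windows. Fat2's RefSeq start lies 24307 bp inside the GENCODE span of the gene, so its window is not that of the outermost annotated start. The same limit holds for Zic4 (6559 bp inside), the Pax6 window with 16 (13563 bp) and the other Etv1 window (4331 bp). The Etv1 window shown starts 702 bp inside. Short motifs were looked for on both strands. The E-box form CAGATG (17.2% of all windows) and TATAAA (13.6%) were found only in the other Etv1 window, and the nuclear factor I motif TTGGCA (14.1%) in the Cbln3 window and the other Etv1 window. The E-box form CAGCTG (16.3%) and the ETS letters CCGGAAG (8.86%) were in none of the 9 windows.

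All 9 genes were higher in cerebellum than in cortex and striatum, and the lowest cerebellum library was above the highest library of the other regions for each of them. The share of all genes whose libraries separate between regions in this way is not reported, here or for Neurod1 below. Together they took 0.5001 to 0.597% of all counts in a cerebellum library, 0.0122 to 0.0200% in a cortex library and 0.00998 to 0.0224% in a striatum library. All 9 passed the test in both comparisons (edgeR quasi-likelihood test with Benjamini-Hochberg adjustment, the largest adjusted p being 6.6e-29 for Zic4 against striatum). Of all 20387 genes, 40.1% were called higher in cerebellum than in cortex and 39.7% higher than in striatum, while 3.53% and 3.85% were both called and at least 4-fold higher, as were the 9 genes. The genes are known for cerebellar expression, so this order is a description of the tissue.

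**Figure D1:**
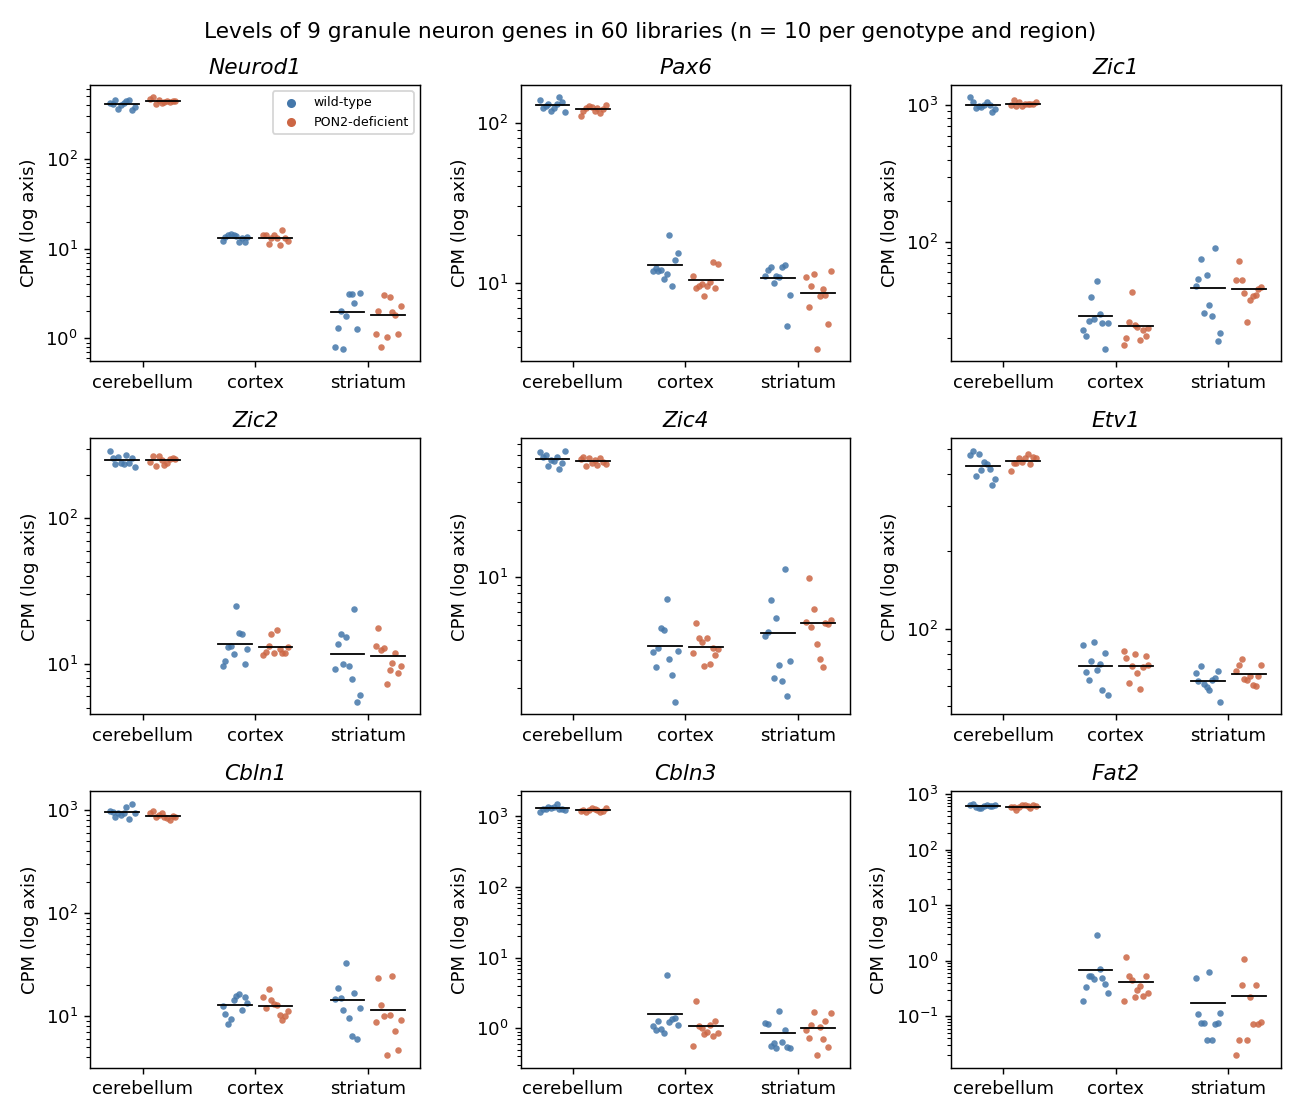
CPM on a log axis of each gene by region, with points for single libraries, blue for wild-type and orange for PON2-deficient (n = 10 per genotype and region), and black lines for means. A library with no Fat2 count is drawn at 0.02 CPM; the cerebellum points lie in a narrow band above all others, and the genotypes overlap in every panel.

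Cbln3 and Fat2 had the largest contrasts of the 9, and Cbln1 is given with them as the other synaptic gene. Cbln3 was at 1149 to 1511 CPM in cerebellum (median 1257), 0.559 to 5.72 CPM in cortex (median 1.0803) and 0.418 to 1.78 CPM in striatum (median 0.845). The lowest cerebellum library was 201 times the highest library elsewhere, and the fitted difference was 9.97 ± 0.15 (log2, SE, n = 20 per region) against cortex and 10.41 ± 0.16 against striatum. Fat2 was at 517 to 670 CPM in cerebellum (median 605), 0.186 to 2.89 CPM in cortex (median 0.415) and 0 to 1.06 CPM in striatum (median 0.077). Its log2 difference was 10.20 ± 0.18 against cortex and 11.56 ± 0.19 against striatum, which ranked 7 and 2 among the 20387 genes. These traces rest on few counts, with medians of 27.7 (Cbln3) and 11.2 (Fat2) expected counts in cortex and 23.1 and 1.99 in striatum. Cbln1 was at 800 to 1152 CPM in cerebellum (median 915), 8.31 to 18.3 CPM in cortex (median 12.6) and 4.18 to 32.6 CPM in striatum (median 10.9). Its mean in cortex was 1.39% and in striatum 1.41% of that in cerebellum, against 0.105% and 0.0734% for Cbln3. The log2 difference was 6.19 ± 0.16 against cortex and 6.18 ± 0.16 against striatum.

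Among the transcription factors, Neurod1 had the largest contrast with striatum, 7.84 ± 0.10 (log2, SE), above that of Cbln1. Neurod1 was at 348 to 481 CPM in cerebellum (median 428), 10.9 to 15.99 CPM in cortex (median 13.3) and 0.768 to 3.20 CPM in striatum (median 1.91), and it alone among the factors separated the 3 regions with no overlapping library. Its mean in cortex was 3.13% and in striatum 0.450% of that in cerebellum. Zic1 was at 897 to 1138 CPM in cerebellum (median 1011), 16.6 to 52.2 CPM in cortex (median 24.3) and 18.9 to 90.9 CPM in striatum (median 43.7). Zic2 was at 226 to 292 CPM in cerebellum (median 254), 9.64 to 24.9 CPM in cortex (median 12.6) and 5.47 to 23.8 CPM in striatum (median 10.0). Zic4, the least abundant ZIC gene of the 3, was at 48.5 to 63.6 CPM in cerebellum (median 55.5), 1.62 to 7.25 CPM in cortex (median 3.46) and 1.77 to 11.2 CPM in striatum (median 4.67). The ZIC genes thus overlapped between cortex and striatum, and their log2 differences from cerebellum ran from 3.54 (Zic4 against striatum) to 5.27 (Zic1 against cortex).

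Pax6 was at 110 to 143 CPM in cerebellum (median 123), 8.26 to 19.9 CPM in cortex (median 11.2) and 3.88 to 12.98 CPM in striatum (median 10.4). Etv1, which is also a marker of deep-layer cortical projection neurons, was at 361 to 491 CPM in cerebellum (median 442), 55.3 to 89.0 CPM in cortex (median 72.1) and 52.1 to 76.2 CPM in striatum (median 64.2). Etv1 had the smallest contrast of the 9, 2.61 ± 0.05 against cortex and 2.76 ± 0.05 against striatum, and its means there were 16.4% and 14.8% of that in cerebellum. The lowest cerebellum library was still 4.05 times the highest library elsewhere.

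Striatum and cortex differed for 7 of the 9 genes, at a background of 57% of all genes called in either direction (28.8% higher and 28.2% lower in striatum). Zic1 was higher in striatum by 0.79 ± 0.13 (log2, SE) and Zic4 by 0.38 ± 0.16, while Neurod1 fell by 2.84 on the log2 scale, Fat2 by 1.35, Cbln3 by 0.44, Pax6 by 0.26 and Etv1 by 0.15. Neurod1 is the only one of these whose libraries did not overlap. Zic2 was at -0.22 ± 0.11 (edgeR adjusted p = 0.0779) and Cbln1 at 0.00 ± 0.14, with an interval of -0.28 to 0.28. The Zic4 and Cbln3 calls did not hold under every setting. Zic4 lost its call without the libraries numbered 2, 3 or 5 and Cbln3 without those numbered 2, 3, 4 or 5. Leaving out the libraries numbered 3 gave 0.10 for Zic4 (edgeR adjusted p = 0.586) and leaving out those numbered 2 gave -0.33 for Cbln3 (edgeR adjusted p = 0.189), and Zic2 was called without the libraries numbered 3 (-0.40, edgeR adjusted p = 0.000836).

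Levels were compared between genes as CPM per kilobase of annotated exon. In cerebellum the order was Cbln1 (302), Cbln3 (261), Zic1 (178), Neurod1 (155), Zic2 (87.6), Fat2 (41.7), Etv1 (33.0), Pax6 (10.6) and Zic4 (5.37), all in mean CPM per kilobase. Per kilobase of the longest transcript Etv1 (66.7) stood above Fat2 (41.7) and the rest of the order was the same. In cortex Etv1 led with 5.41 CPM per kilobase, ahead of Neurod1 (4.85), and Fat2 was last with 0.0379. In striatum Zic1 led with 8.04 CPM per kilobase, or Etv1 with 9.87 per kilobase of the longest transcript.

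Other genes of the granule lineage, fixed as a list of 21, shared the direction less completely. Of the 20 in the table, 18 were called higher and 1 lower in cerebellum than in cortex, and 19 higher and 1 lower than in striatum, with a median log2 difference of 1.58 and 1.67 (0.00 over all genes in both comparisons). Over all genes 40.1% were called higher than in cortex and 39.7% higher than in striatum. Gabra6 was higher than in cortex by 11.70 ± 0.21 (log2, SE), Barhl1, a homeobox factor of granule precursors, by 8.56 ± 0.16, Mab21l1 by 5.40 ± 0.16 and Cdh15, which encodes M-cadherin, by 4.78 ± 0.11. Zic5, another ZIC gene, was higher in cerebellum than in cortex by 3.77 ± 0.14. Among 7 cerebellin relatives and partners, 3 were called higher and 4 lower than in cortex. The cerebellins Cbln2 and Cbln4 fell by 3.36 and 2.70 on the log2 scale and Grid1 fell by 1.23. Of 10 PAX, ETV, NEUROD and FAT relatives in the table, 5 were called higher and 5 lower than in cortex, from Pax3 (9.34 ± 0.27) to Neurod6, a factor of cortical excitatory neurons, which fell by 3.43. The counts called higher in these lists of relatives were near the 40.1% of all genes.

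Markers of other cerebellar cells rose with the 9 genes in this comparison. Of 10 Purkinje neuron markers 9 were called higher than in cortex, Pcp2 by 10.51 ± 0.24, and of 8 markers of cerebellar interneurons and unipolar brush cells 7 were called higher. The share over all genes was 40.1%. Most listed markers of these other cells thus shared the direction of the 9 genes.

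No difference of the 9 genes between PON2-deficient and wild-type cerebellum passed the test. None was called, against 0.0321% (6 of 18710) of all genes, and at an unadjusted p under 0.05 there were 3 of the 9 and 11.1% of all genes (edgeR quasi-likelihood test with Benjamini-Hochberg adjustment). The largest differences in either direction were those of Neurod1 and Cbln1. Of the 9 differences 3 were above 0 and 6 below, with a median of -0.05 (0.00 over all genes), and wild-type and PON2-deficient ranges overlapped for every gene.

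Neurod1 was at 348 to 448 CPM in wild-type (median 413) and 409 to 481 CPM in PON2-deficient cerebellum (median 440). Of the 10 PON2-deficient libraries 8 lay within the wild-type range and 2 above it. The log2 difference was 0.11 ± 0.05 (SE, n = 10 per genotype, edgeR adjusted p = 0.364), an interval of 0.02 to 0.21. Cbln1 was at 820 to 1152 CPM in wild-type (median 936) and 800 to 972 CPM in PON2-deficient cerebellum (median 864), with 9 libraries within the wild-type range and 1 below. Its log2 difference was -0.11 ± 0.05 (edgeR adjusted p = 0.361). Cbln3 was at 1174 to 1511 CPM (median 1282) against 1149 to 1318 CPM (median 1240), a log2 difference of -0.09 ± 0.04 (edgeR adjusted p = 0.432). Pax6 was at 116 to 143 CPM (median 128) against 110 to 129 CPM (median 122), a log2 difference of -0.08 ± 0.04 (edgeR adjusted p = 0.452).

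For the other 5 genes the difference was smaller. Etv1 was at 361 to 491 CPM in wild-type and 409 to 476 CPM in PON2-deficient cerebellum (0.07 ± 0.05), and Zic1 at 897 to 1138 against 988 to 1095 CPM (0.04 ± 0.04). Fat2 was at 559 to 670 against 517 to 637 CPM (-0.05 ± 0.04), Zic4 at 48.5 to 63.6 against 51.0 to 58.0 CPM (-0.05 ± 0.05) and Zic2 at 226 to 292 against 228 to 270 CPM (-0.01 ± 0.04). All 10 PON2-deficient libraries lay within the wild-type range for Etv1, Zic1, Zic4 and Zic2. Over the 9 genes the intervals (the difference plus or minus 1.96 SE) reached from -0.20 (Cbln1) to 0.21 (Neurod1) on the log2 scale. The multiplier is that of a normal distribution, so the intervals are somewhat narrower than the F test implies. That of Pax6 was -0.16 to -0.004, at an unadjusted p of 0.0518 (edgeR).

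**Figure D2:**
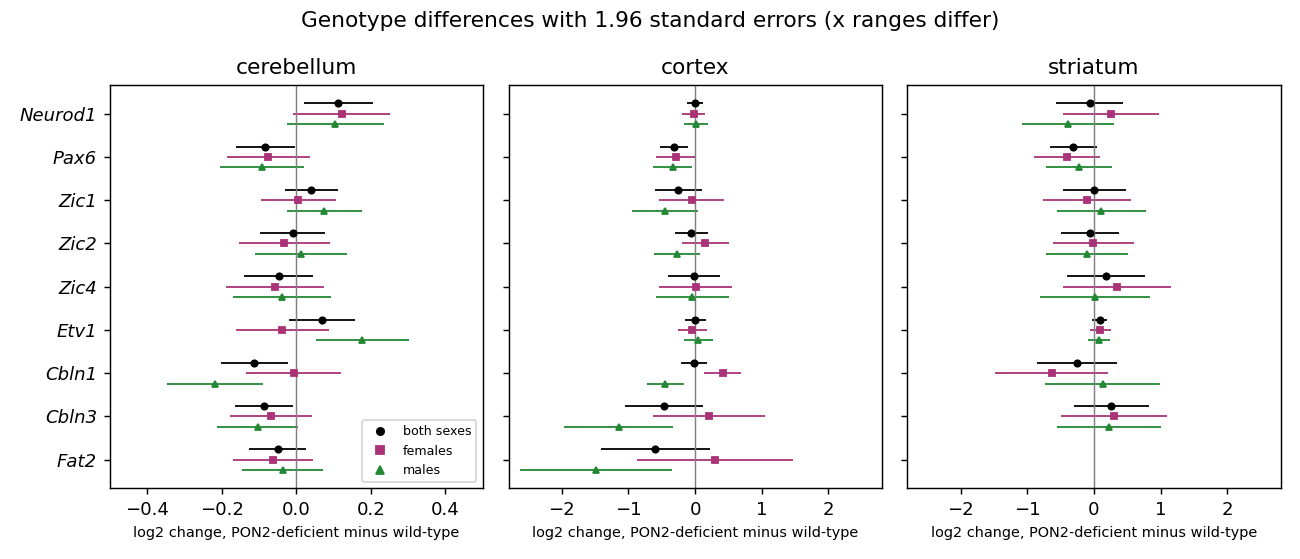
Log2 change of each gene, PON2-deficient minus wild-type, in each region, with bars of 1.96 standard errors for both sexes (black circles), females (purple squares) and males (green triangles). The cerebellum axis is narrower than the others, Fat2 was not tested in striatum, and no change passed the adjusted threshold of 0.05.

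Among the 19 other granule lineage genes tested in cerebellum none was called and the median difference was 0.01. The smallest p-values were those of Nfib, a nuclear factor I gene of the lineage, at -0.20 ± 0.04 (edgeR adjusted p = 0.0933), and Gabra6 at 0.11 ± 0.03 (edgeR adjusted p = 0.166). The Gabra6 mean was 518 ± 21.2 CPM (SD, n = 10) in wild-type cerebellum, against 557 ± 23.2 CPM with the deficiency. None of 10 Purkinje neuron markers, 8 interneuron and unipolar brush cell markers or 9 Bergmann glia and astrocyte markers was called either. Summed levels of the whole marker lists overlapped between genotypes: Purkinje markers 6584 to 9348 CPM in wild-type against 7592 to 9196 CPM, and meningeal fibroblast markers 225 to 290 against 160 to 297 CPM. All 12 meningeal and all 12 choroid plexus markers lay lower in PON2-deficient cerebellum (medians -0.21 and -0.36, none called), and the choroid plexus sums ran from 574 to 2280 CPM in wild-type and 34.8 to 2732 CPM in PON2-deficient libraries. The part of these tissues in the differences of the 9 genes was not tested.

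By sex, no gene of the 9 was called in female cerebellum (background 0.00534%) or male cerebellum (0.016%). The largest difference in a single sex was that of Cbln1 in males. In male cerebellum Cbln1 was at 928, 1070, 820, 1152 and 940 CPM in wild-type and at 855, 838, 800, 869 and 850 CPM in PON2-deficient libraries, so that 4 of the 5 wild-type libraries lay above all PON2-deficient ones and 1 lay among them. The log2 difference was -0.22 ± 0.07 (SE, n = 5 per group, edgeR adjusted p = 0.214). In female cerebellum Cbln1 was at 971, 962, 850, 931 and 903 CPM in wild-type and 944, 972, 858, 892 and 932 CPM in PON2-deficient libraries, a log2 difference of -0.01 ± 0.07. Etv1 in male cerebellum was at 443, 434, 415, 361 and 381 CPM in wild-type and 459, 476, 437, 464 and 459 CPM in PON2-deficient libraries (0.18 ± 0.06, edgeR adjusted p = 0.313), against -0.04 ± 0.06 in females. At an unadjusted p under 0.05 there were 0 of the 9 genes and 5.16% of all genes in females, and 2 of the 9 and 10.6% of all genes in males (edgeR). Male and female differences were not called apart for any gene of the 9 or any other gene (background 0%). That difference was -0.21 ± 0.09 for Cbln1 and 0.21 ± 0.09 for Etv1 (edgeR adjusted p = 0.967 for both).

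In cortex none of the 9 genes was called by genotype, against 0.0316% (6 of 18972) of all genes, and at an unadjusted p under 0.05 there were 1 of the 9 and 11.4% of all genes (edgeR). Pax6 had the smallest p. It was at 9.495 to 19.9 CPM in wild-type (median 11.97) and 8.26 to 13.5 CPM in PON2-deficient cortex (median 9.69), with 3 PON2-deficient libraries below the wild-type range and 7 within it. The log2 difference was -0.31 ± 0.11 (SE, n = 10 per genotype, edgeR adjusted p = 0.256). Etv1 was at 55.3 to 89.0 against 58.5 to 82.0 CPM (0.01 ± 0.08) and Neurod1 at 11.9 to 14.39 against 10.9 to 15.99 CPM (0.00 ± 0.06). Zic1 was at -0.25 ± 0.18, Zic2 at -0.06 ± 0.12 and Zic4 at -0.02 ± 0.20 on the log2 scale.

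A pair of libraries stood apart in cortex, the wild-type male library numbered 1 the further of them. The wild-type male library numbered 1 held 5.72 CPM of Cbln3, where the other 19 cortex libraries held 0.559 to 2.42 CPM, and 2.89 CPM of Fat2, where the others held 0.186 to 1.15 CPM. It was also the highest for Zic1 (52.2 CPM, others 16.6 to 43.4), Zic2 (24.9 CPM, others 9.64 to 17.03) and Zic4 (7.25 CPM, others 1.62 to 5.11), for Gabra6 (2.20 CPM, others 0 to 0.883) and for the Purkinje markers Pcp2 (7.55 CPM, others 0.0737 to 1.90) and Car8 (22.9 CPM, others 8.34 to 15.2). It was not the highest for Cbln1 (15.8 CPM, rank 3 of 20), Neurod1 (13.8 CPM, rank 8), Pax6 (11.4 CPM, rank 10) or Etv1 (69.0 CPM, rank 13). Nor was it for the granule lineage genes Barhl1 (0.110 CPM, rank 3), Cdh15 (2.27 CPM, rank 4) and Mab21l1 (1.17 CPM, rank 13). Its thalamic marker sum was the highest as well, at 377 CPM against 288 to 345 CPM, while its meningeal sum of 162 CPM lay inside the range of 114 to 333 CPM. As a share of the cerebellum mean, its Cbln3 was at 0.450%, Fat2 at 0.478%, Gabra6 at 0.409% and Pcp2 at 0.835%. The sum of all 10 Purkinje markers was 1089 CPM, rank 10 of 20 (others 868 to 1240 CPM), and that of the 20 other granule lineage genes was 1356 CPM, rank 2 (others 1242 to 1376 CPM). The PON2-deficient female library numbered 2 came next for Cbln3 (2.42 CPM), Fat2 (1.15 CPM), Gabra6 (0.883 CPM) and Car8 (15.2 CPM). Its Pcp2, at 1.38 CPM, was below that of the wild-type male library numbered 3 (1.90 CPM). Its level of the Purkinje marker Ppp1r17 (0.269 CPM) and its Barhl1 (0.0384 CPM) were inside the ranges of the other cortex libraries. The part of cerebellar tissue in these libraries was not tested.

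The cortex differences of Cbln3 and Fat2 moved with both libraries. With the wild-type male library, Cbln3 was at -0.47 ± 0.30 and Fat2 at -0.60 ± 0.42 (edgeR adjusted p = 0.589 and 0.630). Without it, they were at -0.09 ± 0.20 and -0.08 ± 0.31. In males alone the differences with it were -1.14 ± 0.42 for Cbln3 and -1.49 ± 0.58 for Fat2 (edgeR adjusted p = 0.217 and 0.248), and without it -0.38 ± 0.29 and -0.45 ± 0.46. Without the PON2-deficient female library instead, they were at -0.69 ± 0.28 and -0.87 ± 0.41 (edgeR adjusted p = 0.437 and 0.514), and in females alone they went from 0.21 ± 0.43 to -0.23 ± 0.42 for Cbln3 and from 0.30 ± 0.60 to -0.25 ± 0.62 for Fat2. Without the wild-type male library, Zic1 moved from -0.25 to -0.10 and Zic4 from -0.02 to 0.20, while Pax6 was at -0.35 ± 0.11 (edgeR adjusted p = 0.218).

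**Figure D3:**
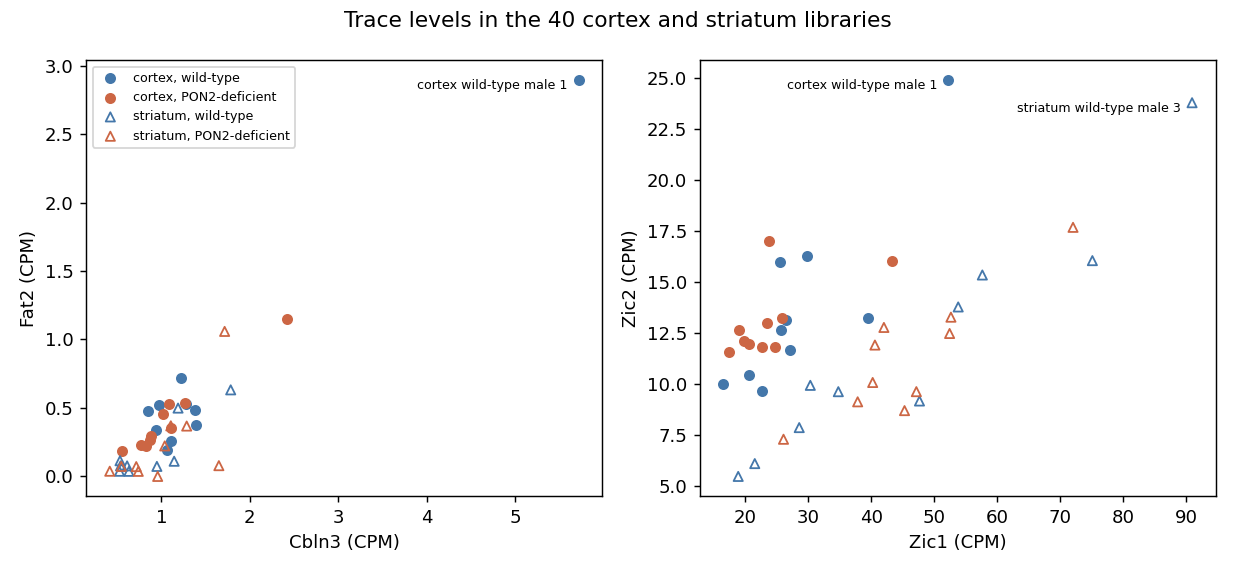
Left, Cbln3 against Fat2, and right, Zic1 against Zic2, in CPM for each of the 40 cortex (filled circles) and striatum (open triangles) libraries, blue for wild-type and orange for PON2-deficient. The labelled cortex library stands at 5.72 CPM of Cbln3 and 2.89 CPM of Fat2, and the labelled striatum library at 90.9 CPM of Zic1 and 23.8 CPM of Zic2.

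Cbln1 in cortex lay in opposite directions in the sexes. Female wild-type libraries were at 12.5, 10.4, 8.31, 9.28 and 14.3 CPM and female PON2-deficient libraries at 15.2, 11.98, 18.3, 14.3 and 13.2 CPM. Male wild-type libraries were at 15.8, 16.4, 11.5, 15.4 and 13.5 CPM and male PON2-deficient libraries at 12.7, 10.3, 9.09, 10.0 and 11.3 CPM. The ranges overlapped in both sexes, with PON2-deficient females mostly above and PON2-deficient males mostly below their wild-type groups. The log2 difference was 0.41 ± 0.14 in females and -0.45 ± 0.14 in males (SE, n = 5 per group, edgeR adjusted p = 0.618 and 0.154), and the mean over both sexes was -0.02 ± 0.10. The male minus female difference was -0.86 ± 0.20, with an unadjusted p of 0.00034 and an edgeR adjusted p of 0.249, at a background of 0% of genes called. DESeq2 gave -0.86 ± 0.21 with an adjusted p of 0.0201, so the call depends on the tool. The background of 0% is that of edgeR, and the share of all genes that DESeq2 called here is not reported. With a library left out, edgeR called this difference in 0 of 20 fits. In females and males of the cortex 0.00527% and 0.148% of all genes were called, and none of the 9. At an unadjusted p under 0.05 there were 1 of the 9 and 6.6% of all genes in females, and 4 of the 9 and 14% of all genes in males (edgeR). Those in males were Cbln1, Cbln3, Fat2 and Pax6, of which Cbln3 and Fat2 moved with the wild-type male library numbered 1. Of the 9 male differences 7 were below 0 and 2 above, with a median of -0.34 (-0.003 over all genes).

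**Figure D4:**
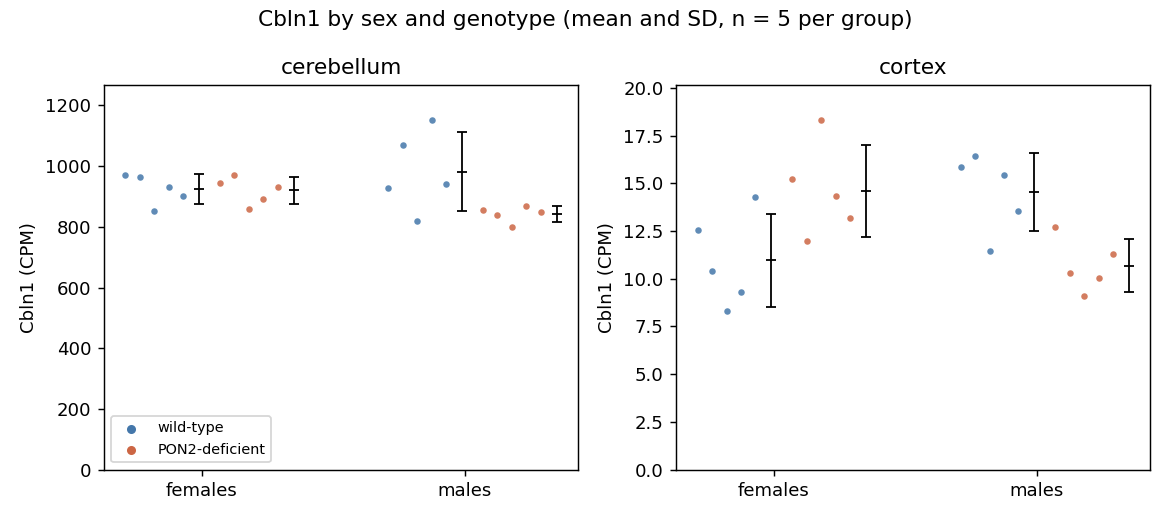
Cbln1 in CPM by sex and genotype in cerebellum (left) and cortex (right), with points for the 5 libraries of a group and bars for mean and SD. In cortex the PON2-deficient females (mean 14.6 CPM) sit above and the PON2-deficient males (mean 10.7 CPM) below their wild-type groups (10.97 and 14.5 CPM), with overlapping points.

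In striatum none of the 8 genes tested was called by genotype, against 0.0105% (2 of 18962) of all genes, or 1 gene with the replicate numbers as a block, and at an unadjusted p under 0.05 there were 0 of the 8 and 4.94% of all genes (edgeR). Fat2 did not pass the count filter there, with at most 1.06 CPM. Pax6 was at 5.36 to 12.98 CPM in wild-type (median 10.997) and 3.88 to 11.8 CPM in PON2-deficient striatum (median 8.77), a log2 difference of -0.31 ± 0.18 (SE, n = 10 per genotype, edgeR adjusted p = 0.995). Etv1 was at 52.1 to 72.1 against 60.03 to 76.2 CPM (0.09 ± 0.06), with 3 PON2-deficient libraries above the wild-type range. Cbln1 was at 6.01 to 32.6 against 4.18 to 24.7 CPM (-0.25 ± 0.31), and Neurod1 at 0.768 to 3.20 against 0.813 to 3.03 CPM (-0.07 ± 0.26). None was called in females or males (background 0.00527% in each) or between the sexes (0%).

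The ZIC genes moved together between striatum libraries. The wild-type male library numbered 3 was the highest for Zic1 (90.9 CPM, others 18.9 to 75.1), Zic2 (23.8 CPM, others 5.47 to 17.7), Zic4 (11.2 CPM, others 1.77 to 9.88), Pax6 (12.98 CPM, others 3.88 to 12.6) and Zic5 (14.3 CPM, others 2.47 to 8.13). Its septal and hypothalamic marker sum ranked 2 of 20, at 121 CPM against 33.6 to 137 CPM, its olfactory bulb and migrating neuroblast marker sum ranked 1, at 161 CPM against 88.6 to 158 CPM, and its striatal projection marker sum ranked 19, at 4852 CPM against 4526 to 8899 CPM. Its Cbln3 (0.951 CPM) and Fat2 (0.0731 CPM) were inside the ranges of the others. The part of neighbouring tissue in these levels was not tested. Without that library the genotype difference of Zic4 went from 0.18 ± 0.30 to 0.58 ± 0.21 (edgeR adjusted p = 0.703) and that of Zic1 from 0.00 ± 0.24 to 0.30 ± 0.17.

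The genotype differences in cerebellum were compared with those in the other regions in the same fit of 60 libraries. None of the 9 was called for cerebellum against cortex (background 0.0147%) or cerebellum against striatum (0.00981%). The largest of these differences were those of Fat2, 0.55 ± 0.43 against cortex and -0.41 ± 0.63 against striatum, and with a replicate number left out they ran from -0.01 to 0.93 and from -1.66 to 0.36. Fat2 did not pass the count filter in striatum alone, where its median was 1.99 expected counts. Its difference against striatum thus rests on few counts. Cbln3 against cortex, at 0.38 ± 0.29, ran from -0.12 to 0.73. The narrowest intervals were those of Etv1, -0.11 to 0.24 against cortex and -0.19 to 0.16 against striatum. No difference between females and males was called for any of the 9 genes, at backgrounds of 0.118% of genes in cerebellum, 0.0896% in cortex and 0.105% in striatum. The cerebellum differences between sexes lay between -0.04 (Zic2) and 0.06 (Fat2). The largest in any region was Neurod1 in striatum, higher in males by 0.66 ± 0.26 (edgeR adjusted p = 0.531). Without the striatum library with the highest ZIC levels, Zic4 was lower in males by a log2 difference of -0.73 ± 0.21 (edgeR adjusted p = 0.336).

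Across the 20 libraries of a region the genes varied least in cerebellum, where the highest library was 1.27 (Zic1) to 1.44 (Cbln1) times the lowest. In cortex that ratio was 1.47 for Neurod1 and 1.61 for Etv1 but 10.2 for Cbln3 and 15.5 for Fat2. The highest library for both Cbln3 and Fat2 was the wild-type male library numbered 1. The others ran from 0.559 to 2.42 CPM and from 0.186 to 1.15 CPM, at cortex medians of 27.7 and 11.2 expected counts. In striatum the ratio was 1.46 for Etv1 and 7.80 for Cbln1, and Fat2, which ran from 0 to 1.06 CPM, has no finite ratio. For Etv1 in cerebellum it was 1.36.

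Deviations of log2 CPM from the group means described which genes varied together, over 20 libraries of a region that share dissection and depth. Of 36 pairs of genes, 30 had a Pearson r above 0 in cerebellum (median 0.19), 22 in cortex (median 0.10) and 29 in striatum (median 0.31). The highest pairs were Zic1 with Etv1 in cerebellum (r = 0.70, Spearman rho 0.68), Cbln3 with Fat2 in cortex (r = 0.89, rho 0.75) and Zic1 with Zic2 in striatum (r = 0.93, rho 0.85). Leaving out the 2 libraries farthest from the median of the gene named before the other gave r = 0.69, 0.69 and 0.85 in that order.

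Over all 60 libraries, the genes of 13415 compared whose log2 CPM was most like the mean of the 9 were Car8, Slc1a6, Il16, Skor2 and Dao, with Pearson r from 0.993 to 0.995, which reflects mainly the contrast between regions. Car8 was at a mean of 1347 CPM in cerebellum, 12.6 CPM in cortex and 8.08 CPM in striatum. Car8, Slc1a6 and Skor2 are known from Purkinje neurons. Over deviations within the 20 cerebellum libraries the closest were En2 (r = 0.85), Diras2 (0.84), Myef2 (0.82), Hip1r (0.77) and Chrnb2 (0.76). For single genes in cerebellum, the highest was Chn2, which encodes the Rac regulator beta-chimaerin of granule neurons, with Cbln3 (r = 0.95, rho 0.97). Others were Frmd6 with Neurod1 (0.89), Myef2 with Zic1 (0.90), Fndc10 with Cbln1 (0.90), Gramd1b with Fat2 (0.85), Whamm with Zic2 (0.79), Srf with Zic4 (0.74) and Nrros with Pax6 (0.74). Chn2 was at 781 ± 47.4 CPM (SD, n = 20) in cerebellum, and these r values are descriptions of the libraries, the highest of many compared.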

How the data were processed

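RNA was measured in 60 libraries of mouse brain. The deposited counts are expected counts per gene that the authors made, and the deposited log2 values are log2 CPM; a recomputation with an offset of 0.5 and TMM-scaled library sizes gave the same values within 5.33e-14. A precision weight, a score for each gene in each library, was also deposited by the authors. The submitters' processing notes name Salmon, edgeR and limma. Versions, genome build and strand setting: not given in the sources used here. Of 20423 gene IDs, 20403 matched a GENCODE M21 symbol.

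Expected counts were rounded and fitted with edgeR 4.0.16 in R 4.3.3: TMM scaling, filterByExpr (minimum count 10), group means of sex and genotype within each region, and quasi-likelihood F tests (two-sided) adjusted over all genes tested by Benjamini and Hochberg at 0.05. Regions were compared in 1 fit of all 60 libraries. The standard error is the log2 change over the square root of F. Library CPM used TMM-scaled sizes, and log2 CPM a prior count of 2. The steps were tested on simulated data. Alternatives used DESeq2 1.42.0, limma 3.58.1, other scalings and filters, covariates, a replicate block and left-out libraries. By the correlation of deviations, replicate numbers paired wild-type with PON2-deficient libraries most clearly in male striatum (r from 0.128 to 0.508 in 5 pairs). In male cerebellum all 5 pairs were also above 0 (r from 0.0110 to 0.352, mean 0.141). Each other region and sex compared by genotype had a pair below 0. Between regions every pair was above 0.1 only for cerebellum and cortex of wild-type females. The mean r of equal numbers was nonetheless above 0 in every such comparison (0.0319 to 0.141). Deviations sum to 0 within a group, which pushes the mean r of unequal numbers to the opposite sign. The unequal numbers are therefore no separate baseline. For cerebellum and striatum of PON2-deficient males, all 5 libraries were most like the library of their own number. Apart from the replicate block, the fits of all 60 libraries treated them as independent.

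The 9 genes and the 16 other lists (162 genes) were chosen with earlier results of these data known. Named genes were the 9, Pon2, up to 4 called genes per list with the largest change or else up to 2 with the smallest p, and the genes most alike; a few of these are not reported here. The fits took every gene past the filter, and nothing was imputed, and no library was left out unless stated. No library pair was a duplicate (highest correlation 0.989).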

Additional observations from a re-analysis of the deposited data

Results flagged for a closer look

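Within single groups of 5 libraries, 12 of 108 sets of values (9 genes in 12 groups) had a library far from the other 4. For independent sets of normally distributed values, chance gives about 1 in 20, or 5.4. Several of the 12 cases share a library and CPM values need not be normal, so these counts are no test of an excess. In cortex, the wild-type male library numbered 1 was the highest for Cbln3 (5.72 CPM, the other 4 at 1.11 to 1.40) and for Fat2 (2.89 CPM, the others at 0.259 to 0.719). Zic2 was highest in PON2-deficient male 1 (17.03 CPM, the others at 11.8 to 12.98), Cbln3 in PON2-deficient female 2 (2.42 CPM, the others at 0.559 to 1.09), and Pax6 was lowest in wild-type female 5 (10.6 CPM, the others at 11.8 to 12.3).

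In striatum, wild-type male 3 was the highest for Zic1 (90.9 CPM, the others at 18.9 to 34.8), Zic2 (23.8 CPM, the others at 5.47 to 9.63) and Zic4 (11.2 CPM, the others at 1.77 to 2.94). Fat2 was highest in wild-type female 1 (0.499 CPM, the others at 0.0377 to 0.111) and in wild-type male 1 (0.632 CPM, the others at 0.0373 to 0.114), and Cbln1 in PON2-deficient male 2 (24.7 CPM, the others at 4.72 to 10.2). In cerebellum the single case was Zic1 in PON2-deficient male 5 (1052 CPM, the others at 1019 to 1027), a gap that is small against its level.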

How the results depend on the processing

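None of the 9 genes was called by genotype in 312 values under alternative settings or in 1560 values with a library left out. The comparisons of cerebellum with cortex and striatum called all 9 under every alternative and every set of left-out libraries; scaling by library totals alone moved the median of all genes by 0.13 and 0.12 there. DESeq2 called 1 of the 9 genes for the sex difference of the genotype effect in cortex (Cbln1), and the share of all genes it called there is not reported. Genes called by genotype numbered 6 in cerebellum (DESeq2 244, limma on the deposited log2 CPM 16, a fit of all 60 libraries 13, 1 to 49 with a library left out, the highest without wild-type male 3), 6 in cortex (DESeq2 238, transcript length slope as covariate 154, a fit of all 60 libraries 2, 1 to 26 with a library left out, the highest without PON2-deficient female 5, and 12 without wild-type male 1) and 2 in striatum (DESeq2 7, a fit of all 60 libraries 4). With the replicate block they numbered 30 in cortex and 1 in striatum, where the pairing held in male libraries only, and the block changed no genotype call of the 9. For the difference between cerebellum and cortex 3 genes were called (DESeq2 17, limma 12, 2 to 5 with a replicate number left out), and for cerebellum and striatum 2 (DESeq2 7). The causes were not tested.

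Some differences that were not called changed sign, the largest of them that of Fat2 between the genotype differences in cerebellum and cortex (0.55). For the genotype difference of cerebellum minus striatum, Zic1 and Zic2 changed sign under 2 of 6 alternative settings each. Under 1 of 2 settings each, so did Zic4 in male cortex and Cbln1 and Zic2 in male striatum. The cases listed next are those of genotype over both sexes and of striatum against cortex. With limma these were Zic2 in cerebellum (0.0083) and striatum (0.084) and Cbln1 in striatum against cortex (-0.13). With the replicate block they were Zic4 in cortex (0.052), Zic2 in striatum (0.040) and Cbln1 in striatum against cortex (-0.070). With the choroid plexus marker mean as covariate they were Zic4 (0.10), Cbln1 (0.058) and Etv1 (-0.0012) in cortex and Zic1 in striatum (-0.014). With the transcript length slope they were Zic2 (0.039), Zic4 (0.035) and Etv1 (-0.11) in cortex. With a library left out the values ran from -0.025 to 0.015 for Zic2 in cerebellum. In cortex they ran from -0.066 to 0.038 for Cbln1, -0.030 to 0.039 for Etv1, -0.049 to 0.021 for Neurod1, -0.12 to 0.053 for Zic2 and -0.11 to 0.20 for Zic4. In striatum they ran from -0.25 to 0.035 for Neurod1, -0.086 to 0.30 for Zic1 and -0.14 to 0.21 for Zic2, and for Cbln1 in striatum against cortex from -0.21 to 0.12. In striatum against cortex, Zic4 was not called with limma (adjusted p = 0.175) or the block (0.0657), Cbln3 was not called with the block (0.0509), and Zic2 was called with limma and with the block (0.0416).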
